A study of Mus musculus with 12 samples.

Results

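The genes described here encode the digestive hydrolases of the lysosome and the subunits of the vacuolar proton pump that acidifies it, together with a few proteins of the lysosomal membrane, lipid transfer proteins and regulators. Members were taken by name from a list of 41 genes, and each was represented by the probe set with the highest mean over all 12 arrays among those whose annotation gave that symbol alone. Of the 41 genes, 40 were found this way among 18193 genes with 1 symbol on the array: 17 hydrolases, 13 pump subunits and 10 membrane, lipid transfer or regulator genes. Atp6v0c, the proteolipid subunit of the pump, was not analysed here. The tissue was whole lung from A/J mice, aged 8 to 10 weeks by the labels, 4 days after particle exposure by the methods, in 4 groups of 3 arrays. Control mice received PBS in place of both agents. The group labelled OVA was given ovalbumin, 0.4 mg/kg intraperitoneally on day 0 and 30 mg/kg intratracheally on day 14. The group labelled PM received Baltimore ambient particulate matter by aspiration, 50 µl of a suspension of 10 mg/ml, and the OVA/PM group received both agents. The methods describe RNA from the lungs of 3 animals per group, and the labels do not say how animals were assigned to arrays, so the p-values measure the spread between these arrays.

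Lysosomal hydrolases are made in the secretory pathway, tagged with mannose 6-phosphate in the Golgi and carried to the lysosome, where they work at acid pH. The acid is supplied by the vacuolar ATPase, which has a cytosolic V1 sector that splits ATP and a membrane V0 sector that moves protons. Many genes of both groups carry, near their start, a CLEAR element, a palindromic E-box read by the transcription factor TFEB and its relatives TFE3, MITF and TFEC. In the lung, alveolar macrophages are rich in lysosomes, and alveolar type II cells store surfactant in lysosome-related lamellar bodies. Acp5 and Atp6v0d2 are best known from osteoclasts and are also made by some macrophages.

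All arrays had the character of lung: the lowest value of any array was 15.40 log2 units for Sftpc (surfactant protein C), 14.98 for Ager (alveolar type I cells) and 15.85 for Scgb1a1 (club cells). The labels OVA and PM carry a doubt that touches every comparison with 1 of these groups, but not OVA/PM against Control, the interaction or the promoters. Of 28 fold changes of single genes that the study tabulates, 28 were matched once OVA and PM traded names and 4 were matched by the labels as they stand. Those 4 belong to Rgs9 and Sema7a, tabulated with equal folds for both agents, so they match under either naming. The labels were kept, so "labelled OVA" and "labelled PM" name arrays, and a direction given for either group rests on its label. Which naming is right was not tested. OVA/PM replicate 3 stood apart in its hybridization controls, with BioB at 6.65 and BioC at 7.56 log2 units where the next highest array had 4.68 and 3.95, while array medians ran from 4.84 to 5.03.

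The promoters are shown first because the E-box is the sequence feature for which these genes are known. RefSeq windows of 250 bases before each annotated start (GRCm38.p6) were held for 34 of the 41 listed genes. The 7-letter E-box TCACGTG, searched on both strands so that it also reads CACGTGA, was found in 8 of them (23.5%): Gla, Glb1, Arsa, Atp6v0b, Atp6v1a, Lamp1, Cln3 and Mcoln1. Over all 27025 genes of the table the share was 3.58%. The full palindrome TCACGTGA, which contains the shorter motif on both strands, was found in 4 of the 34, against 0.907% of all genes. The windows below run 5′ to 3′ on the gene's own strand, and capitals mark the E-boxes. Gla, Glb1, Lamp1, Mcoln1 and Atp6v0b show how the motif was placed in hydrolases that rose, in membrane proteins that did not pass the test and in a pump subunit. Hexa and the first listed start of Acp5 are hydrolases that rose and whose windows hold no match.
Gla, chrX:134601176-134601255, minus strand: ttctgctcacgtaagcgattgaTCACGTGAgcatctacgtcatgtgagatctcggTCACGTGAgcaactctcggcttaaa
Glb1, chr9:114400998-114401077, plus strand: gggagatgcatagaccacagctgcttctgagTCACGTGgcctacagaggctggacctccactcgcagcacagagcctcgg
Lamp1, chr8:13159081-13159160, plus strand: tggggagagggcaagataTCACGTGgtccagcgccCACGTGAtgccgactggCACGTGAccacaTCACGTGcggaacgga
Mcoln1, chr8:3500429-3500518, plus strand: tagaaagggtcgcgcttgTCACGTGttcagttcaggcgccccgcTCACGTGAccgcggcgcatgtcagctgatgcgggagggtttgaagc
Atp6v0b, chr4:117887330-117887389, minus strand: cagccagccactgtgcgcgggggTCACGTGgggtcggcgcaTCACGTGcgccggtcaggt
Acp5, chr9:22135747-22135826, minus strand: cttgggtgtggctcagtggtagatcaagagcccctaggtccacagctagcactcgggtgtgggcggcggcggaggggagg
Hexa, chr9:59539460-59539539, plus strand: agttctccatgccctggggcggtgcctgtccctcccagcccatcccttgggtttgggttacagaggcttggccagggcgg
The Gla window starts 250 bases before the annotated start, and the other windows end at the base before it. Among members in the table that passed the test in OVA or OVA/PM against Control, 2 of 14 held the motif, and among measured members that passed in neither, 6 of 19 held it. Asah1, Atp6v0d2, Atp6v1b2, Atp6v1c1, Atp6v1g1, Atp6v1h and Npc1 had no window in the table. A match describes letters only, and a window without one says nothing about the factor.

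As a group, the hydrolases were higher in the arrays labelled OVA and in OVA/PM, and the pump subunits were higher by less. Relative to the Control mean of each gene, the median over the 17 hydrolases was 0.68, 0.35 and 0.52 log2 units in the 3 arrays labelled OVA and 0.45, 0.64 and 0.58 in the 3 OVA/PM arrays. In the arrays labelled PM it was 0.07, -0.07 and 0.19, against -0.01, 0.07 and -0.01 in Control. The OVA and OVA/PM arrays all lay above the other 6 arrays for the hydrolases. The median over the 13 pump subunits was 0.23, 0.15 and 0.21 in the arrays labelled OVA, 0.21, 0.27 and 0.22 in OVA/PM, 0.00, -0.02 and 0.01 in those labelled PM, and 0.05, 0.03 and -0.07 in Control. For the pump, too, the OVA and OVA/PM arrays lay above the other 6, by less, while PM and Control overlapped. The difference of these medians, hydrolases minus pump, was 0.32 ± 0.12 (SD, n = 3) in the arrays labelled OVA, 0.32 ± 0.07 in OVA/PM, 0.07 ± 0.11 in those labelled PM and 0.02 ± 0.07 in Control. It fell to 0.14 for OVA and 0.21 for OVA/PM when all probe sets of a gene were averaged, and to 0.22 and 0.23 with the mean over genes in place of the median.

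**Figure D1:**
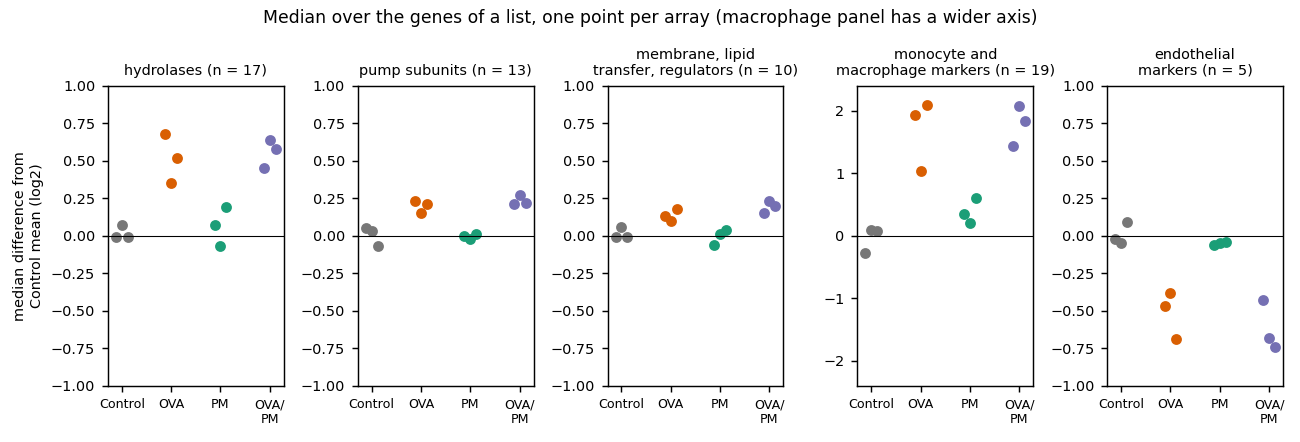
Median over the genes of each list of the difference from the gene's Control mean (y axis, log2), with 1 point per array and the 4 groups on the x axis; the macrophage panel has a wider axis. The hydrolase points of OVA (0.35 to 0.68) and OVA/PM (0.45 to 0.64) lie above those of PM and Control, the pump points rise by less (0.15 to 0.27), the macrophage markers rise by more and the endothelial markers fall.

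Markers of several other cell types moved with the same groups. Of all genes tested against Control, 11.3% rose and 7.58% fell in OVA, and 13.9% rose and 9.74% fell in OVA/PM. Over 19 monocyte and macrophage markers, 13 rose in the arrays labelled OVA and 14 in OVA/PM, with median log2 fold changes of 1.63 and 1.72, while 0 of 18 tested passed in the arrays labelled PM (median 0.36, limma; 2 at an unadjusted p under 0.05). The mean of these 19 genes ran from 8.45 to 9.0 log2 units in Control, 10.15 to 11.09 in OVA, 8.96 to 9.41 in PM and 10.41 to 11.01 in OVA/PM. OVA replicate 2, the lowest array of its group for the hydrolases, was also the lowest for these markers. Of 5 endothelial markers, 3 fell in the arrays labelled OVA and 4 in OVA/PM, with medians of -0.53 and -0.61, and their median difference from the Control mean ran from -0.05 to 0.09 in Control arrays, -0.69 to -0.38 in OVA, -0.06 to -0.04 in PM and -0.74 to -0.43 in OVA/PM. T cell markers rose for 4 of 5 genes tested in OVA and 4 of 6 in OVA/PM, and their mean went from 5.37 to 6.54 in Control to 7.36 to 7.82 and 7.37 to 7.70. Of 7 osteoclast and giant cell markers measured, Calcr, Ocstamp, Itgb3, Oscar and Tnfrsf11a stayed under 4.93, the median of all values, in all arrays. Dcstamp, which is needed for fusion of macrophages and osteoclasts, was at 2.56, 2.50 and 2.65 in Control and at 6.43, 6.29 and 6.87 in OVA/PM. In the arrays labelled OVA it was at 5.97, 2.84 and 5.23, and it was not tested there because replicate 2 lay under that level. Nfatc1, a transcription factor of osteoclasts, went the other way, from 9.72, 9.83 and 9.75 in Control to 9.52, 9.60 and 9.58 in OVA/PM, a log2 fold change of -0.20 that did not pass (unadjusted p = 0.0496, adjusted p = 0.133, limma), and it was at 9.82, 9.73 and 9.70 in OVA. Alveolar type I markers fell for 1 of 4 genes in OVA and 3 of 4 in OVA/PM (median -0.32 in both), ciliated cell markers rose for 2 of 5 in both (medians 0.75 and 0.57), and smooth muscle markers fell for 0 of 4 in OVA (limma; 1 at an unadjusted p under 0.05) and 2 of 4 in OVA/PM (median -0.40). Neutrophil markers varied within groups: the mean of 8 genes was 7.19, 7.99 and 10.36 in Control, 10.01, 7.44 and 8.42 in OVA, 7.32, 6.87 and 6.45 in PM and 7.81, 9.74 and 9.02 in OVA/PM. Of 5 tested, 1 rose in OVA and 1 in OVA/PM (medians 0.10 and 0.31). In PM 0 of 5 passed (limma, 4 at an unadjusted p under 0.05), with a median of -1.64. Control replicate 3 stood apart for Ngp, a neutrophil granule protein, at 11.16 against 5.18 and 4.46 in the other Control arrays. Alveolar type II markers passed for 0 of 5 genes in OVA (limma, 1 at an unadjusted p under 0.05) and fell for 1 of 5 in OVA/PM (medians -0.13 and -0.17). Club cell markers fell for 1 of 4 in both. B cell markers passed for 0 of 3 tested in OVA (1 at an unadjusted p under 0.05) and rose for 1 of 3 in OVA/PM. Of 5 eosinophil markers, 1 was tested, and it did not pass in either group. In whole lung, fewer cells of a type and less RNA per cell cannot be told apart, and the part of these cell types in the results below was not tested.

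The first comparison asks which lysosomal genes differ in the arrays labelled OVA. Of 40 members, 15 rose and 0 fell (limma, Benjamini-Hochberg adjusted p under 0.05), against a background of 11.3% of all 11326 genes tested that rose and 10.1% of those with a mean at or above the 75th percentile of all values. Rises were seen in 10 of 17 hydrolases, 3 of 13 pump subunits and 2 of 10 membrane, lipid transfer and regulator genes. The median log2 fold change was 0.55 for the hydrolases, 0.24 for the pump and 0.14 for the third group, and 0.00 over all genes tested (-0.02 over those with a high mean). The count depended on single arrays: it was 6, 4 and 9 without Control replicate 1, 2 or 3, 6 without OVA replicate 1 and 2 without OVA replicate 3. Calls over all probe sets moved too, from 4326 of 22498 to 1291, 636 and 2579 without Control replicate 1, 2 or 3. They were 982 without OVA replicate 1 and 407 without OVA replicate 3. Without OVA replicate 2, 14 members and 5284 probe sets were called. SAM, the method of the study, called 25 higher and 1 lower, where it called 47.5% of all probe sets.

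**Figure D2:**
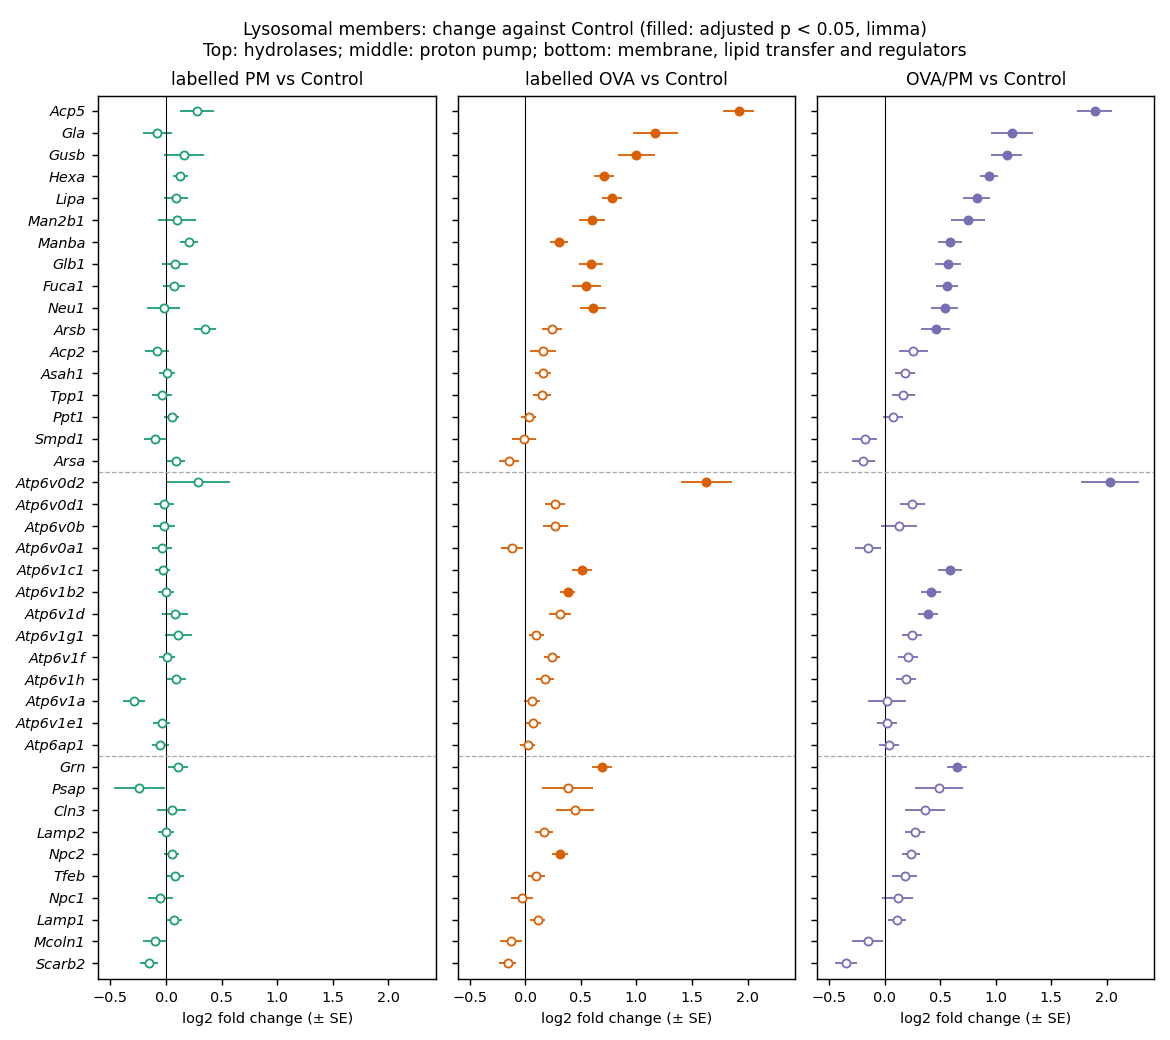
Log2 fold change against Control (x axis, ± SE) of each of the 40 members (y axis) for the arrays labelled PM, labelled OVA and OVA/PM, with filled points where the adjusted p of limma was under 0.05. Hydrolases stand at the top, pump subunits in the middle and the other members at the bottom; 0 points are filled for PM, 15 for OVA and 16 for OVA/PM, all to the right of 0.

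Acp5, tartrate-resistant acid phosphatase, had the greatest rise of the hydrolases. Its level was 8.59, 9.04 and 8.84 log2 units in Control and 10.79, 10.59 and 10.84 in the arrays labelled OVA. It was 9.04, 8.98 and 9.30 in those labelled PM and 10.52, 10.93 and 10.70 in OVA/PM. All 6 arrays of OVA and OVA/PM lay above all 6 of Control and PM, with more than 1 log2 unit between them. The log2 fold change in OVA was 1.92 (SE 0.14, adjusted p = 0.00468, limma), a 3.78-fold difference, and it kept its call without any single array.

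Gla, α-galactosidase A, which cleaves globotriaosylceramide, was at 7.08, 6.70 and 6.72 in Control and 8.32, 7.64 and 8.07 in OVA. In PM it was at 6.79, 6.66 and 6.83 and in OVA/PM at 7.62, 8.21 and 8.12, so the PM arrays lay within or below the range of Control. It rose by 1.17 in OVA (SE 0.20, adjusted p = 0.0192, limma), and a second probe set of Gla rose by 2.23. Gusb, β-glucuronidase, was at 9.86, 9.99 and 9.75 in Control and 11.18, 10.56 and 10.86 in OVA, a rise of 1.0 (SE 0.17, adjusted p = 0.0188). Its PM arrays, at 10.00, 9.71 and 10.36, spread further than those of Control. The calls of both genes in OVA were lost without Control replicate 2 or OVA replicate 3, that of Gla also without OVA replicate 1 and that of Gusb also without Control replicate 1 (highest adjusted p 0.0799 and 0.0756).

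Hexa, the α subunit of β-hexosaminidase, which breaks down GM2 ganglioside, varied little within groups. It was at 11.96, 11.96 and 12.01 in Control, 12.67, 12.58 and 12.82 in OVA, 12.13, 12.08 and 12.11 in PM and 12.85, 12.97 and 12.94 in OVA/PM. The groups did not overlap, and the rise in OVA was 0.71 (SE 0.09, adjusted p = 0.0111, limma). Lipa, lysosomal acid lipase, which frees cholesterol and fatty acids from lipoprotein lipids, was at 10.14, 10.41 and 10.26 in Control and 11.05, 11.06 and 11.04 in OVA, a rise of 0.78 (SE 0.09, adjusted p = 0.0103). Its 3 OVA arrays were nearly equal. Leaving out 1 array took the call from Hexa without Control replicate 2 (0.0501) and from Lipa without OVA replicate 3 (0.0506).

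The other hydrolases that rose in OVA cleave sugars from glycoproteins and glycolipids. They were Neu1 (sialidase, log2 fold change 0.61), Man2b1 (α-mannosidase, 0.60), Glb1 (β-galactosidase, 0.59), Fuca1 (α-fucosidase, 0.55) and Manba (β-mannosidase, 0.30), with adjusted p from 0.0233 to 0.0463 (limma). The calls of Neu1, Man2b1 and Glb1 were lost in 5, 4 and 4 of the 6 fits that left out 1 array. Both Control replicates 1 and 2 and OVA replicates 1 and 3 were among the arrays that decided them. Hydrolases that did not pass included Arsb (arylsulfatase B, 0.24), Asah1 (acid ceramidase, 0.16), Acp2 (acid phosphatase 2, 0.16), Tpp1 (tripeptidyl peptidase 1, 0.15), Ppt1 (palmitoyl-protein thioesterase, 0.03), Smpd1 (acid sphingomyelinase, -0.01) and Arsa (arylsulfatase A, -0.15). The list therefore ranged from -0.15 to 1.92.

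**Figure D3:**
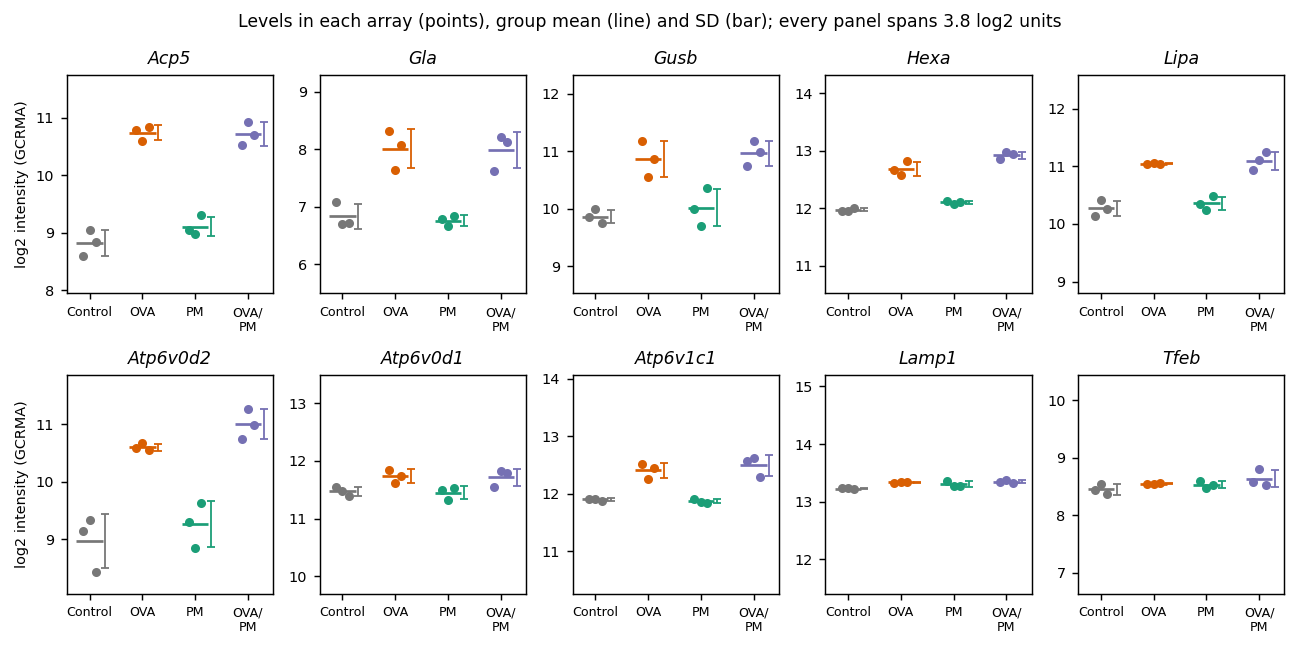
Levels of 10 members in each array (y axis, log2 intensity; every panel spans the same number of log2 units), with the group mean as a line and the SD as a bar for the 4 groups on the x axis. Acp5, Gla, Gusb, Hexa, Lipa, Atp6v0d2 and Atp6v1c1 stand higher in OVA and OVA/PM, whereas Atp6v0d1, Lamp1 and Tfeb differ by at most 0.27 between the means of any of these groups and Control.

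Among pump subunits, Atp6v0d2 stood far from the rest. This subunit is 1 of a pair of alternative d subunits of the V0 sector, the other being the widely expressed Atp6v0d1. Atp6v0d2 was at 9.15, 9.33 and 8.44 in Control, 10.59, 10.67 and 10.55 in OVA, 9.30, 8.85 and 9.64 in PM and 10.74, 11.27 and 10.99 in OVA/PM. Control and PM overlapped, and both lay below OVA and OVA/PM. The rise in OVA was 1.63 (SE 0.23, adjusted p = 0.0144, limma), and the call was lost without OVA replicate 3 (0.0626). Atp6v0d1 was at 11.54, 11.48 and 11.39 in Control and 11.85, 11.62 and 11.74 in OVA, a difference of 0.27 that did not pass (SE 0.09, adjusted p = 0.0878). Its levels in PM were 11.50, 11.32 and 11.53 and in OVA/PM 11.55, 11.82 and 11.79.

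The V1 subunits that rose in OVA were Atp6v1c1 and Atp6v1b2. Atp6v1c1, the C subunit that holds V1 to V0, was at 11.92, 11.92 and 11.87 in Control and 12.52, 12.26 and 12.45 in OVA, a rise of 0.51 (SE 0.09, adjusted p = 0.0223, limma). Atp6v1b2, a subunit of the ATP-splitting head, was at 11.34, 11.33 and 11.21 in Control and 11.71, 11.67 and 11.66 in OVA, a rise of 0.38 (SE 0.07, adjusted p = 0.025). For both genes the arrays labelled PM lay at or close to the Control values. The other 10 pump subunits did not pass, with log2 fold changes from -0.12 for Atp6v0a1, the a1 subunit of V0, to 0.31 for Atp6v1d (adjusted p = 0.0749), which lies in the central stalk. Atp6v1a, the catalytic subunit, differed by 0.06 between means of 11.93 in Control and 11.99 in OVA.

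Of the membrane, lipid transfer and regulator genes, Grn and Npc2 rose in OVA. Grn, which encodes progranulin, was at 12.97, 13.08 and 13.00 in Control and 13.73, 13.57 and 13.81 in OVA, a rise of 0.69 (SE 0.09, adjusted p = 0.013, limma), lost without OVA replicate 3 (0.0572). Npc2, which binds cholesterol in the lysosome, rose by 0.31 (adjusted p = 0.0356). Lamp1, the major membrane glycoprotein, was at 13.23, 13.23 and 13.22 in Control and 13.33, 13.34 and 13.35 in OVA, a difference of 0.11 (SE 0.07, adjusted p = 0.26). Its arrays did not overlap, yet the difference did not pass. Lamp2, which also serves in autophagy, differed by 0.17 (SE 0.08, adjusted p = 0.162) and Tfeb, the regulator named above, by 0.10 (SE 0.08, adjusted p = 0.408). Tfeb was at 8.44, 8.55 and 8.36 in Control and 8.54, 8.54 and 8.56 in OVA, so these arrays overlapped. Cln3, Psap, Npc1, Mcoln1 and Scarb2 did not pass either, with values from 0.45 for Cln3 to -0.16 for Scarb2, a receptor that carries β-glucocerebrosidase to the lysosome.

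In OVA/PM the counts were close to those of OVA. Of 40 members, 16 rose and 0 fell against Control, with a background of 13.9% of 11333 genes that rose, or 11.7% of those with a high mean. The risers were 11 of 17 hydrolases, 4 of 13 pump subunits and 1 of 10 of the third group, and the medians were 0.56, 0.21 and 0.21 against 0.01 over all genes tested. With the filter at the 75th percentile of all values, 18 rose and 1 fell. By SAM 22 rose and 2 fell, where it called 42.3% of all probe sets tested. Both comparisons use the same Control arrays. In both, 14 members rose, with Npc2 rising in OVA alone and Arsb and Atp6v1d in OVA/PM alone. This is not a test of a difference between the groups, and another probe set of Atp6v1d rose in OVA too, by 0.37 (adjusted p = 0.0333, limma). The count was 9 without Control replicate 2 and between 11 and 13 without any other array, including 13 without OVA/PM replicate 3. Beside these values, 3 of 8 striated muscle markers fell in OVA/PM (median -1.62, range -4.78 to -0.02). Mean levels of Acta1, Ckm, Tnnt3 and Myot were 13.62, 11.98, 10.61 and 7.77 in Control and 9.59, 9.13, 5.83 and 3.03 in OVA/PM. Those of Myh6, Tnnt2, Tnni3 and Myl7 were 13.22, 12.13, 10.39 and 13.1 in Control and 12.85, 12.11, 10.01 and 12.85 in OVA/PM.

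Atp6v0d2 had the greatest change of the members in OVA/PM, a rise of 2.03 (SE 0.26, adjusted p = 0.00459, limma) or 4.07-fold. Acp5 rose by 1.89 (SE 0.16, adjusted p = 0.00117), Gla by 1.15 (SE 0.19, adjusted p = 0.0103) and Gusb, at 10.74, 11.18 and 10.98, by 1.10 (SE 0.14, adjusted p = 0.00423). Hexa rose by 0.94 (SE 0.08, adjusted p = 0.00138), and Lipa, at 10.94, 11.11 and 11.25, rose by 0.83 (SE 0.12, adjusted p = 0.00694). These 6 genes kept their calls without any single array. Man2b1 rose by 0.75 (SE 0.15, adjusted p = 0.0172), Grn by 0.65 (SE 0.09, adjusted p = 0.00604), Atp6v1c1 by 0.59 (SE 0.11, adjusted p = 0.0158) and Manba by 0.59 (SE 0.11, adjusted p = 0.0138). Without Control replicate 2, Man2b1, Atp6v1c1 and Manba did not pass (adjusted p up to 0.0611), and Atp6v1c1 did not pass without OVA/PM replicate 1.

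Smaller rises in OVA/PM were 0.57 for Glb1, 0.56 for Fuca1, 0.54 for Neu1, 0.46 for Arsb, 0.42 for Atp6v1b2 and 0.39 for Atp6v1d. Arsb was at 8.81, 9.03 and 8.98 in Control and 9.39, 9.23 and 9.59 in OVA/PM, and its PM arrays, at 9.42, 9.31 and 9.15, overlapped those of OVA/PM. Lamp1 differed by 0.11 (SE 0.08, adjusted p = 0.325, limma), Lamp2 by 0.27 (SE 0.09, adjusted p = 0.0754), Atp6v0d1 by 0.25 (SE 0.11, adjusted p = 0.146) and Tfeb by 0.18 (SE 0.11, adjusted p = 0.273). None of these 4 genes passed here, but Lamp2 passed without the filter (adjusted p = 0.0468), with the filter at the 75th percentile (0.0397), in one fit of all groups (0.0243), by SAM (0.0105) and with its probe set of lowest p (0.0227). Scarb2 was the lowest member, at 12.92, 12.96 and 12.74 against 13.24, 13.28 and 13.13 in Control, a log2 fold change of -0.35 that did not pass (SE 0.10, adjusted p = 0.0533).

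In the arrays labelled PM, 0 of 40 members passed against Control (limma; 3 at an unadjusted p under 0.05, and 0 by SAM), with 0.0986% of all 11158 genes passing. Arsb and Manba, at 0.35 and 0.21, and Atp6v1a, at -0.29, were the 3 members with an unadjusted p under 0.05. Another probe set of Atp6v1a did not show this fall, at 0.07 (adjusted p = 0.88, limma). Acp5 differed by 0.28 (SE 0.15, adjusted p = 0.666), Atp6v0d2 by 0.29 (SE 0.29, adjusted p = 0.816), Atp6v0d1 by -0.02 (SE 0.09, adjusted p = 0.971), Lamp1 by 0.07 (SE 0.07, adjusted p = 0.805), Lamp2 by 0.00 (SE 0.07, adjusted p = 0.998) and Tfeb by 0.08 (SE 0.08, adjusted p = 0.826). The medians were 0.08 for the hydrolases and -0.02 for the pump, beside 0.03 over all genes tested. The PM arrays of Arsb, Manba, Hexa and Lamp1 lay above all Control arrays and those of Atp6v1a below them, though none of these genes passed. The share of all genes whose arrays did not overlap was not counted. A value that did not pass does not show that the groups were alike. With OVA and PM exchanged, these counts belong to the other agent: the arrays labelled OVA would then be PM arrays, with 15 members higher, and those labelled PM would be OVA arrays, with 0.

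Between the exposed groups, 0 of 40 members passed in OVA/PM against OVA (limma; 2 at an unadjusted p under 0.05, and 0 by SAM), where 0.159% of all genes passed. Atp6v0d2 had the highest value there, 0.40 (SE 0.15, unadjusted p = 0.0325, adjusted p = 0.547), and Manba followed with 0.28 (unadjusted p = 0.0381, adjusted p = 0.558). Against PM, 12 members rose in OVA/PM, 7 of them hydrolases, 3 pump subunits and 2 of the third group, with a background of 9.13% of genes that rose. Atp6v0d2 rose by 1.74 (SE 0.23, adjusted p = 0.00681), Acp5 by 1.61 (SE 0.14, adjusted p = 0.00203), Gla by 1.22 (SE 0.17, adjusted p = 0.00771), Gusb by 0.94 (SE 0.20, adjusted p = 0.0266) and Hexa by 0.82 (SE 0.09, adjusted p = 0.00332). The call of Gusb was lost without PM replicate 1 or 2 or OVA/PM replicate 2 or 3 (adjusted p up to 0.0783) and without the filter (0.0732). Psap, the precursor of the saposins that present sphingolipids to hydrolases, rose by 0.73 (adjusted p = 0.0187) and is the member among these 12 that passed in no comparison with Control. Its Control arrays were at 13.31, 14.05 and 14.09, a wider spread than in any other group, those of PM at 13.72, 13.34 and 13.68, and those of OVA/PM at 14.18, 14.39 and 14.35. The count of 12 went to 5 without OVA/PM replicate 2, to 6 without PM replicate 1 or 2, to 7 without OVA/PM replicate 1 or 3 and to 9 without PM replicate 3.

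When the arrays labelled OVA were set against those labelled PM, 8 members rose (4 hydrolases, 3 pump subunits and Grn), with a background of 4.23% of genes. These were Acp5 (1.64, adjusted p = 0.0113, limma), Atp6v0d2 (1.34, adjusted p = 0.0361), Gla (1.25, adjusted p = 0.0338), Lipa (0.69, adjusted p = 0.033), Hexa (0.59, adjusted p = 0.0379), Grn (0.58), Atp6v1c1 (0.54) and Atp6v1b2 (0.38). This count was 0 without OVA replicate 1, OVA replicate 3 or PM replicate 2, 1 without PM replicate 1, 2 without PM replicate 3 and 11 without OVA replicate 2. The interaction, which asks whether PM changed a gene differently with OVA than without it, passed for 0 of 40 members (limma; 0 at an unadjusted p under 0.05), and for 0.035% of all genes. The members ranged from -0.31 for Acp5 (SE 0.21) to 0.34 for Psap (SE 0.28), so the SE was smaller than these estimates but large beside them.

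The 40 members had 95 probe sets in all, and 28 members had more than 1. Of the 55 probe sets not used above, 37 were tested in OVA against Control, and 34 of these had the sign of the probe set used. For genes that had passed, 11 of 16 other probe sets passed too, and for genes that had not, 2 of 21. In OVA/PM against Control the figures were 34 of 36 with the same sign, 10 of 15 passing and 5 of 21 passing. Those not passing there included another probe set of Gusb, at 0.56 (adjusted p = 0.209, limma). Other probe sets of Fuca1, at 0.44 and 0.17 (adjusted p = 0.171 and 0.645), did not pass there either. All of these had passed in OVA. Another probe set of Atp6v0d2 rose by 1.59 in OVA (adjusted p = 0.00816) and 1.75 in OVA/PM (adjusted p = 0.00385, limma). The probe sets of Acp2 differed: against 0.16 in OVA and 0.26 in OVA/PM for the one used, which did not pass, another of like brightness was at 0.56 in OVA (adjusted p = 0.0538) and rose by 0.58 in OVA/PM (adjusted p = 0.0187), and a dimmer one rose by 0.79 in OVA (adjusted p = 0.0417). Probe sets also differed for Man2b1, where a dimmer one was at -0.27 in OVA and did not pass (adjusted p = 0.414), and for Scarb2, where another was at 0.36 (adjusted p = 0.0704). For Lamp2, 2 of 3 other probe sets rose in OVA/PM, by 0.38 and 0.39, whereas the one used did not pass. A dimmer probe set of Atp6v0a1 fell in OVA/PM, by 0.78 on the log2 scale (adjusted p = 0.0399), and 1 of Atp6v1a rose by 0.61 (adjusted p = 0.034).

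**Figure D4:**
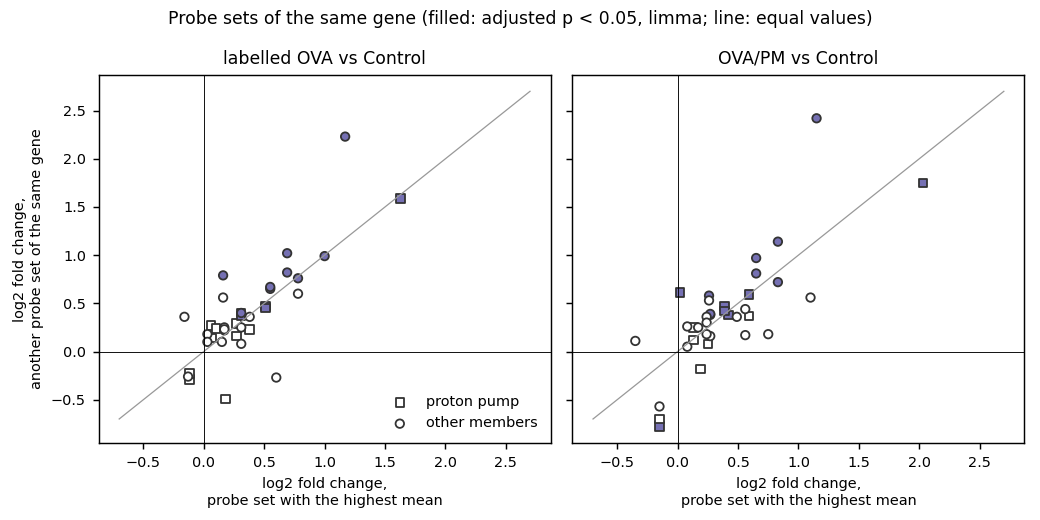
Log2 fold change of each other probe set of a member (y axis) against that of the probe set used for the same gene (x axis), for the arrays labelled OVA and for OVA/PM against Control. Squares are pump subunits and circles other members, filled where the adjusted p of limma was under 0.05, and the line marks equal values; 34 of 37 points in OVA and 34 of 36 in OVA/PM lie on the same side of 0 on both axes.

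Related genes of the lysosome outside the list of members gave a mixed picture. In either direction, 18.8% of all genes tested passed in OVA and 23.6% in OVA/PM against Control. Of 15 other lysosomal enzymes and activators, 3 rose and 1 fell in OVA and 5 rose and 1 fell in OVA/PM. Naglu, which degrades heparan sulfate, rose by 1.08 in OVA and 1.36 in OVA/PM, and Galns, which acts on keratan sulfate, rose by 1.02 and 1.14. Ids, iduronate 2-sulfatase, fell by 0.51 and by 0.47 on the log2 scale. Of 15 other lysosomal membrane proteins, 5 rose in OVA and 6 in OVA/PM, led by Slc11a1, a metal transporter of phagosomes, which was at 7.12, 7.64 and 8.12 in Control and 10.84, 9.34 and 10.44 in OVA. Its rises of 2.58 and 2.64 were larger than those of any member. Tmem192 and the chloride exchanger Clcn7 rose by 0.71 and 0.54 in OVA and by 0.61 in OVA/PM in both cases.

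The rest of the proton pump was measured by 10 further subunits, of which 6 were tested. Of these 6, 3 rose in OVA, and 2 rose and 1 fell in OVA/PM. Their median log2 fold changes were 0.12 and 0.13, beside 0.12 and 0.14 for the other lysosomal enzymes and activators. The higher median of hydrolases over pump among the members was thus not seen between these outside lists. Tcirg1, the a3 subunit used by osteoclasts and macrophages, rose by 1.09 in OVA (adjusted p = 0.0351, limma) and 1.06 in OVA/PM (adjusted p = 0.0028). Its arrays were at 9.04, 9.19 and 9.36 in Control, 10.68, 9.74 and 10.44 in OVA, 8.99, 9.30 and 9.38 in PM and 10.20, 10.39 and 10.19 in OVA/PM, with OVA replicate 2 lowest of the OVA and OVA/PM arrays. Atp6ap2 rose by 0.38 and 0.47 and Atp6v0e by 0.35 in OVA, while Atp6v0e2 fell by 0.42 on the log2 scale in OVA/PM. Of 6 pump assembly factors, 0 passed in OVA (limma; 3 at an unadjusted p under 0.05) and Dmxl2 rose by 0.47 in OVA/PM.

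Of 9 genes for mannose 6-phosphate sorting, 3 rose in OVA, and 3 rose and 2 fell in OVA/PM. Gnptab, which encodes subunits of the enzyme that starts the tag, rose by 0.67 and 0.78, Gga2 by 0.52 and 0.55, and M6pr, the small receptor, by 0.34 and 0.33. Sort1 and Gnptg fell in OVA/PM, by 0.43 and 0.45 on the log2 scale. Of 12 genes of the TFEB family and the Ragulator and Rag complex, which senses amino acids at the lysosome, 3 rose in OVA, and 3 rose and 1 fell in OVA/PM. Tfec, a family member made in macrophages, rose by 1.49 and 1.87, from 6.93, 6.89 and 6.47 in Control to 8.63, 7.86 and 8.26 in OVA and 8.32, 8.83 and 8.75 in OVA/PM. Mitf rose by 0.59 in OVA/PM, Lamtor1 rose by 0.43 and 0.42, and Rraga fell by 0.94 on the log2 scale in OVA/PM. Tfe3, at 0.24 and 0.27, did not pass in either group.

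**Figure D5:**
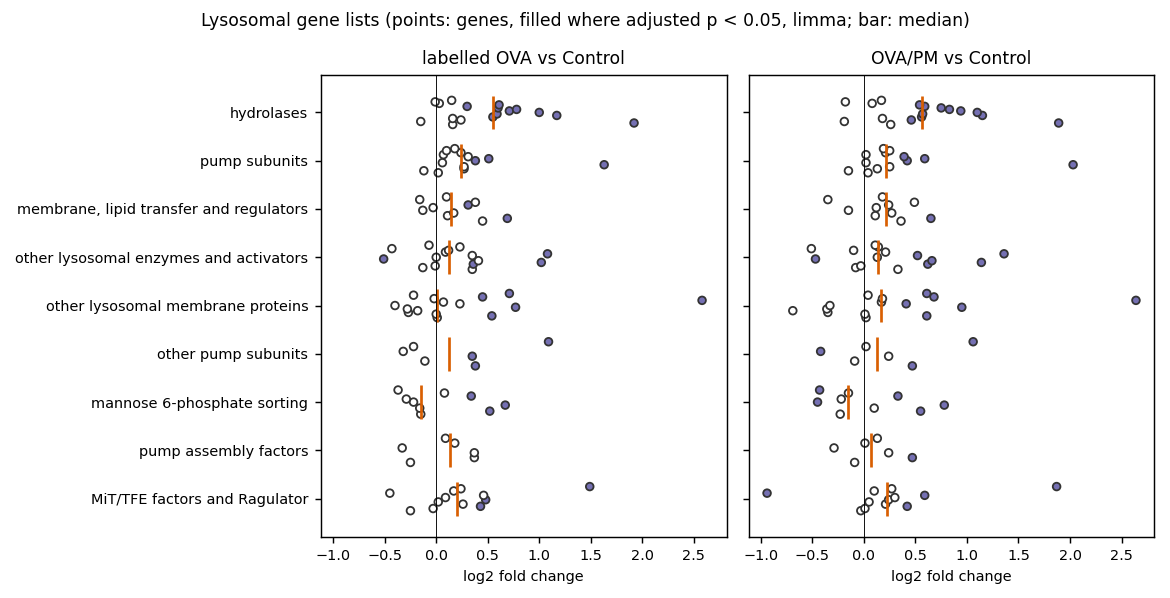
Log2 fold change against Control (x axis) of the genes of each lysosomal list (y axis), for the arrays labelled OVA and for OVA/PM; each point is a gene, filled where the adjusted p of limma was under 0.05, and the bar is the median. The hydrolase medians of 0.55 and 0.56 stand to the right of those of the pump subunits, 0.24 and 0.21, and the other lists have medians between -0.15 and 0.22.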

How the data were processed

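Whole lung RNA was hybridized to Affymetrix Mouse Genome arrays, 1 array per sample. The authors deposited log2 intensities computed with GCRMA, which corrects background by probe composition, normalizes the arrays by quantiles and summarizes probes by median polish. The processing notes also name MAS5, without versions or roles. Quantile normalization makes array medians alike, so a change is relative to the other genes. Symbols came from the array annotation: 34958 probe sets had 1 symbol, 932 several and 9211 none. Pairs of groups, and the interaction in a fit of all groups, were tested with limma 3.58.1 in R 4.3.3, with Benjamini-Hochberg adjustment over all probe sets tested. In place of the study's detection calls, testing required that every array in 1 or both of the groups compared reach 4.93, the overall median; 64 control probe sets were left out. All 40 measured members passed this level in every array. Groups were taken from the sample titles. Members and gene lists were chosen with earlier results of these data known. Full statistics are given for the called members without overlap of arrays, up to 10 by size in OVA and OVA/PM against Control and up to 5 elsewhere, for Acp5, Atp6v0d1, Atp6v0d2, Lamp1, Lamp2 and Tfeb, and for up to 4 called genes per related list. Further values are given for members, for Dcstamp, Nfatc1 and Ngp, and for the striated muscle markers, chosen after their values were seen. At 3 arrays per group the smallest exact permutation p is 0.1, so no such p-value was used, and relabelings of arrays served SAM alone. Alternatives were testing without the filter or with 8.65 (the 75th percentile), adding 16 to linear values, quantile normalization or median centring of the arrays, blocking on replicate number, fitting all groups together, SAM (20 relabelings), other probe sets, exchanged names of OVA and PM, and leaving out each array. The fits were run on simulated data with known changes. Of changes of 0.5 log2 units, limma called 22.4% for OVA, 8.96% for OVA/PM and 11.9% for PM against Control. Of changes of 1 log2 unit, it called 64.2%, 65.7% and 67.2%. False calls made up 6.45%, 5.5% and 7.32% of all calls. Far fewer probe sets changed in the simulations than were called in OVA or OVA/PM.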

Additional observations from a re-analysis of the deposited data

How the results depend on the processing

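In OVA against Control, the count of 15 members went to 0 with the replicate number as a block. That fit called 89 of 22498 probe sets, against 4326 without the block. The count went to 26 with SAM, which called 47.5% of the probe sets tested. In OVA/PM against PM, 12 went to 5 with the block and 19 with SAM, which called 24.1% of the probe sets there. In OVA against PM, 8 went to 5 with the block, 13 in one fit of all groups and 0 without a filter. With SAM it went to 22, where 28.9% of the probe sets were called. In OVA/PM against Control, 16 went to 12 with the block. No clear pairing by replicate number was seen. Deviations from the group means correlated over 0.1 in 3 of 18 same-number pairs (median r -0.05, range -0.38 to 0.32). The best match was a same-number array for 3 of 12 arrays. With 3 arrays per group, these values cannot exclude a pairing. With OVA and PM exchanged, OVA against Control gave 0, PM against Control 15, OVA/PM against OVA 12 and OVA/PM against PM 0. Values then below 0 were -0.08 for Gla and -0.02 for Neu1 in OVA against Control, and -0.03 for Acp5 and -0.02 for Gla in OVA/PM against PM. Leaving out 1 array gave 2 to 14 in OVA against Control, 9 to 13 in OVA/PM against Control, 5 to 9 in OVA/PM against PM, 0 to 11 in OVA against PM, and 0 in PM against Control, OVA/PM against OVA and the interaction. In OVA against Control, calls over all probe sets ran from 407 to 5284 in these fits. Hydrolases minus pump then ran from 0.25 to 0.38 in OVA, 0.01 to 0.12 in PM and 0.29 to 0.37 in OVA/PM. It was 0.14 in OVA and 0.21 in OVA/PM with all probe sets of a gene averaged, and 0.22 and 0.23 with the mean over genes. Scaling moved the median of all genes by at most 0.097. For single genes, a change of sign where neither value passed was not counted as a reversal. Why the counts moved was not tested. The number of arrays limits the precision, and all members lay well within the measured range.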
